A study of Mus musculus with 8 samples.

Results

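Serpins are a family of proteins that share a single fold. Most of them are suicide inhibitors: a protease cleaves an exposed loop of the serpin, and the loop then inserts into the body of the serpin and traps the protease in an inactive complex. Hepatocytes secrete the serpins of blood plasma, which restrain neutrophil elastase, thrombin, factor Xa, plasmin and the C1 proteases, whereas the clade B serpins stay inside cells, many of them leukocytes and epithelia, where they bind granule and lysosomal proteases. A few members, such as the hormone carriers of cortisol and thyroxine and the collagen chaperone Hsp47, inhibit no protease.

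The members were all non-control probes whose gene name on the array starts with Serpin. A probe was taken as a distinct sequence, and copies of a sequence on an array were averaged. There were 63 such gene names among the 64390 names on the arrays, read by 122 of the 100625 distinct probes of the series. The array design used for the first slide held 72 of them (55 names, of 59014 probes) and the design of the second slide held 79 (62 names, of 55602 probes). Only 30 were of identical sequence on both designs, 1 for each of 30 genes, and levels were compared across the slides through these alone.

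The 8 Agilent single-colour arrays measured 4 groups with 2 arrays each. Lineage-depleted (Lin-) BM cells came from femurs and tibiae of 6 to 8 weeks old female C57Bl6/J-Tg(UBCGFP) mice, which carry eGFP under the ubiquitin C promoter, so that eGFP marks any donor cell and not only a hepatocyte. These cells were transplanted into male hemophilia A mice (a knockout of coagulation factor VIII by the F8tm1Kaz allele, also 6 to 8 weeks old) after liver injury by acetaminophen, and eGFP-positive BM-derived hepatocytes were sorted 1 month and 5 months later. Primary hepatocytes were the positive control, and their strain is not given in the sources used here. Expression was measured in 2 experiments, each on the pooled cells of 3 mice, so the p-values measure the spread between pools and not between single mice. Lin- BM cells (arrays L3 and L4) and 1-month hepatocytes (B1 and B2) lay on the first slide, and primary hepatocytes (H2 and H4) and 5-month hepatocytes (G1 and G3) on the second. Slide, design and scan day differ together, and cannot be told apart from group wherever groups of different slides are compared.

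By the flag of the scanner software, an array had 47.7% to 58.6% of its spots well above background and 0 saturated. The 75th percentile of the signal, to which every array was scaled, was 75.5 and 89.5 on the 1-month arrays and between 122 and 193 on the others. Probes that were never well above background therefore lay 1.06 higher (log2) in 1-month hepatocytes than in Lin- BM cells, so a difference of about that size in a dim probe equals the shift of the background. All 6 hepatocyte markers fixed for the check of the labels (such as Alb and Ttr) were well above background on both arrays in each of the 3 hepatocyte groups. In such bulk samples, fewer cells of a type and less RNA per cell cannot be told apart. All 5 pan-leukocyte and all 10 neutrophil and myeloid markers were lower at 1 month than in Lin- BM cells. Below, a level is the log2 signal minus the 75th percentile of its array, a difference is between mean levels of 2 arrays each with its standard error, and a probe was called at an adjusted p under 0.05 (limma, over all probes tested) with a difference beyond 0.6.

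Serpin genes lie in clusters, and close copies complicate what a probe reads. On the second design, for which the array gives mm9 positions, 34 of the 35 clade A probes lay on chromosome 12 between 104854887 and 105651977, with Serpina7 on chromosome X. Clade B was split between chromosome 13 (18 probes) and chromosome 1 (13 probes). The Serpina1 genes encode α1-antitrypsin, the inhibitor of neutrophil elastase, in several nearly identical copies. The following stretches of 30 bases from their probes are shown because they start with the same 27 bases (lower case) and differ, if at all, in the last positions (capitals).
Serpina1a (chr12:105091819-105091878, mm9): gtcatccttccttctgaattgggttccTTC
Serpina1c (chr12:105133165-105133224, mm9): gtcatccttccttctgaattgggttccTTC
Serpina1d (first design, no position given): gtcatccttccttctgaattgggttccCTT
Serpina1e (chr12:105185172-105185231, mm9): gtcatccttccttctgaattgggttccTTT
The positions are those of the whole probes. The Serpina1 copies are therefore reported as α1-antitrypsin signal, and which copy gave it is uncertain.

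The promoters of these copies are nearly identical as well. Of the 63 gene names, 52 had a promoter window in RefSeq (GRCm38.p6, 250 bases before to 50 after the gene start). The letters GTTAAT or their reverse complement ATTAAC, half-sites of the hepatocyte nuclear factor HNF1, were searched on both strands. They occurred in 11 of 54 Serpin genes of that table (20.4%), in 7 of 13 plasma serpin genes and in 3 of 26 clade B genes, beside 8.24% of 27025 genes. Such a match is a description of the sequence only. All 5 of Serpina1a to Serpina1e held it, starting 16 to 78 bases before the gene start, and so did Serpina7. The stretches of 60 bases around it, with GTTAAT in capitals, show how little the α1-antitrypsin copies differ here (57 to 59 of 60 bases identical to Serpina1a).
Serpina1a (chr12:103863605-103863664, GRCm38.p6, minus strand): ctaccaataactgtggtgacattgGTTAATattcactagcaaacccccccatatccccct
Serpina1b (chr12:103738180-103738239, GRCm38.p6, minus strand): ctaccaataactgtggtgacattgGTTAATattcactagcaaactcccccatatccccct
Serpina1c (chr12:103904942-103905001, GRCm38.p6, minus strand): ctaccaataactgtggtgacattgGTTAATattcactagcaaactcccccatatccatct
Serpina1d (chr12:103773614-103773673, GRCm38.p6, minus strand): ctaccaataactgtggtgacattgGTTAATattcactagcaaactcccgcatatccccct
Serpina1e (chr12:103956940-103956999, GRCm38.p6, minus strand): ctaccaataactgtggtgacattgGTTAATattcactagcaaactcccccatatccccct
Serpina7 (chrX:139085258-139085317, GRCm38.p6, minus strand): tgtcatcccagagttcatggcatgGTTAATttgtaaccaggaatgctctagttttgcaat

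The first comparison asked how serpin expression in BM-derived hepatocytes 1 month after transplantation stood against the Lin- BM cells they were derived from, within a slide. Every plasma serpin of the liver that was probed was higher in 1-month hepatocytes. All 18 probes of the 15 plasma serpin genes passed the filter (both arrays of a group, in either group or in both, well above background), all 18 were called higher, and for 10 of them neither Lin- array was well above background. Their median difference was 10.66, or 10.05 with those 10 at their lower bound, beside -0.02 for all 34496 probes tested. Of all probes tested, 55.1% were called, 27.2% higher and 27.9% lower. Over the whole family 43 of 72 probes (36 of 55 genes) passed the filter, 24 were higher, 6 lower and 13 not called. The other 29 probes were not well above background on both arrays of either group.

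**Figure D1:**
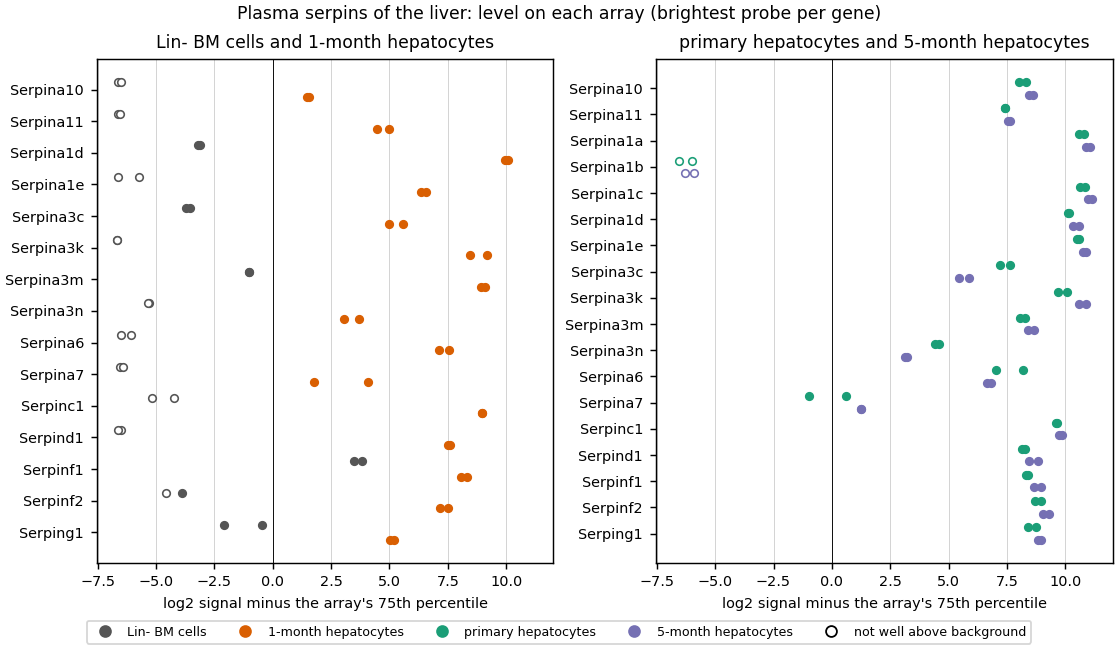
Levels (log2 signal minus the 75th percentile of the array) of the plasma serpins of the liver on each array, 1 row per gene read from its brightest probe; open points were not well above background. On the left, every 1-month point lies above both Lin- points of its gene. On the right, Serpina3c and Serpina3n were 1.75 and 1.34 lower and Serpina7 was 1.42 higher at 5 months, none of them called.

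The α1-antitrypsin signal was higher on both probes. The Serpina1d probe was at -3.11 and -3.20 in Lin- BM cells and at 10.08 and 9.96 in 1-month hepatocytes (difference 13.17 ± 0.27, adjusted p = 4.7e-05). The Serpina1e probe was at background on both Lin- arrays (-6.61 and -5.74) and at 6.36 and 6.57 at 1 month, which is at least 3693-fold higher. The groups did not overlap for either probe, as for 81.9% of all probes tested. The Serpina1f probe, for a further member of the cluster, was not well above background on any of the 4 arrays.

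The Serpina3 genes are the mouse counterparts of α1-antichymotrypsin, expanded into many copies, and they moved in both directions. Serpina3k, which binds kallikrein and trypsin-like proteases, was at -6.65 and -6.65 in Lin- BM cells and at 8.45 and 9.16 at 1 month, at least 18680-fold higher (adjusted p = 4.7e-05), and its second probe was at least 13700-fold higher. Serpina3m rose from -1.01 and -1.02 to 8.91 and 9.08 (10.01 ± 0.27), and Serpina3c from -3.56 and -3.72 to 5.00 and 5.59 (8.94 ± 0.32). For Serpina3n, the acute-phase member, both Lin- arrays were at background (-5.30 and -5.34) and the 1-month arrays at 3.68 and 3.05, at least 411.8-fold higher.

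Serpina3g, known as Spi2A, an inhibitor of cathepsins inside leukocytes, went the other way. It was at 5.29 and 4.54 in Lin- BM cells and at 2.92 and 2.45 at 1 month. This fall by 2.23 (SE 0.38, adjusted p = 0.00743) was seen with its other probe too, which fell by 2.26 (SE 0.37). It was still well above background on both 1-month arrays. The Serpina3f probes were not called (differences 0.03 and -0.89). Serpina3h was at background in Lin- BM cells and at least 8.8-fold higher at 1 month. Serpina3b was 1.20 higher, which is about the shift of the background between these groups, and lost its call without L3, B1 or B2 and with quantile normalization (1.02). Serpina9, a serpin known from germinal centre B cells, was 2.14 higher and lost its call without B1 or B2.

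Among the inhibitors of coagulation, antithrombin (Serpinc1), the main inhibitor of thrombin and factor Xa, was at background on both Lin- arrays (-5.19 and -4.22) and at 8.96 and 8.98 at 1 month, at least 13110-fold higher. Its second probe, well above background on all 4 arrays, differed by 7.99 ± 0.34. Heparin cofactor II (Serpind1), a second inhibitor of thrombin, was at -6.50 and -6.61 in Lin- BM cells and at 7.57 and 7.52 at 1 month, at least 7803-fold higher. Serpina10, the protein Z-dependent inhibitor of factor Xa, was at -6.63 and -6.48 and rose to 1.56 and 1.48, at least 120.2-fold higher. On its brightest probe each of the 3 genes was at background in Lin- BM cells and detected on both 1-month arrays. α2-Antiplasmin (Serpinf2), which inhibits plasmin, was at -4.56 and -3.89 and then at 7.52 and 7.18 (11.58 ± 0.35, with 1 Lin- array well above background).

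The hormone carriers were also at background in Lin- BM cells. Corticosteroid-binding globulin (Serpina6) was at -6.51 and -6.08 there and at 7.55 and 7.10 at 1 month, at least 6700-fold higher. Thyroxine-binding globulin (Serpina7) was at -6.54 and -6.40 and then at 4.09 on array B1 and 1.77 on B2, at least 318.5-fold higher, so the 1-month arrays differed between themselves more than for the other plasma serpins named here. Serpina11, a plasma serpin without a known target, was at least 1097-fold higher.

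C1 inhibitor and PEDF were well above background in Lin- BM cells already. Serping1, C1 inhibitor, which stops the complement proteases C1r and C1s and plasma kallikrein, was at -2.08 and -0.46 in Lin- BM cells and at 5.20 and 5.01 at 1 month (6.38 ± 0.58, adjusted p = 0.00114). Serpinf1, PEDF, an anti-angiogenic factor that inhibits no protease, was at 3.47 and 3.81 in Lin- BM cells and at 8.06 and 8.34 at 1 month (4.56 ± 0.30, adjusted p = 4.48e-04). Hepatocytes had been separated from non-parenchymal cells by low-speed centrifugation before the sort for eGFP. Of 8 Kupffer cell markers, 5 were called higher, 0 lower and 3 not called. Their summed level was 0.59 to 2.27 in Lin- BM cells and 3.52 to 5.45 at 1 month. Of 5 sinusoidal endothelial markers, 4 were higher and 1 lower (summed level 0.63 to 0.67 and 5.69 to 5.75). Of 5 stellate cell markers tested, 2 were higher, 2 lower and 1 not called. Of all probes tested, 27.2% were called higher and 27.9% lower. The part of such cells in these results was not tested.

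**Figure D2:**
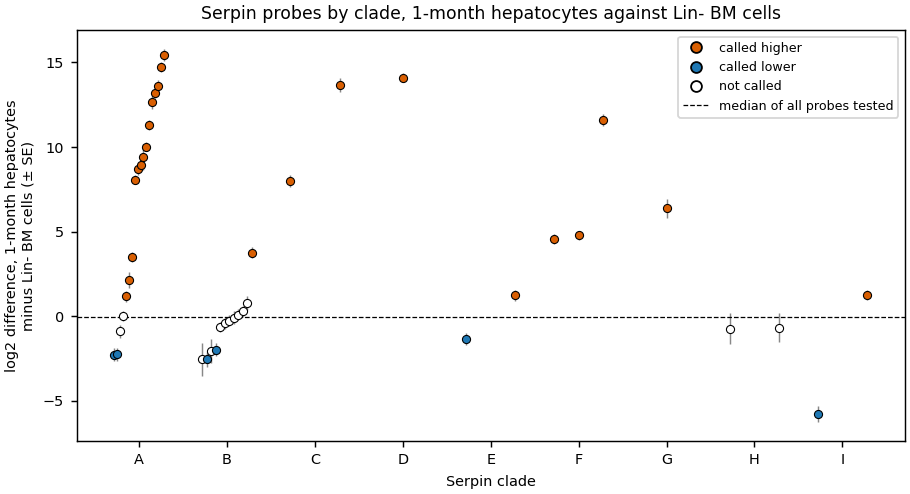
Log2 difference (1-month hepatocytes minus Lin- BM cells, ± SE, 2 arrays each) of the 43 Serpin probes tested, by clade; filled points were called and the dashed line is the median of all probes tested. Clades A, C, D, F and G hold the large rises, and the falls are in clades A, B, E and I.

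Of the 7 probes for serpins of matrix, tissue and the nervous system, 6 passed the filter, 2 were higher and 2 lower. Over all probes tested, 27.2% were called higher and 27.9% lower. Serpini1, neuroserpin, an inhibitor of tissue plasminogen activator best known from neurons, was at 0.95 and -0.30 in Lin- BM cells and at background on both 1-month arrays (-5.36 and -5.54), at least 25.44-fold lower (adjusted p = 8.68e-04). Serpine2, protease nexin-1, which inhibits thrombin and plasminogen activators, was at -2.75 and -1.99 and at background at 1 month, at least 2.53-fold lower, but the fitted difference of -1.34 turned to 0.31 with normexp background correction. That call was also lost without L4, B1 or B2, where the difference lay between -1.38 and -0.96. Serpine3 and Serpini2 (pancpin) were 1.24 and 1.28 higher, again near the shift of the background. Leaving out 1 array lost the call of Serpine3 (L4, B1 or B2) and of Serpini2 (L3 or B2).

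Serpinh1, Hsp47, the endoplasmic reticulum chaperone of collagen, was at 0.91 on array L3 and 3.65 on L4, and at 1.29 and 1.83 at 1 month (-0.72 ± 0.92, adjusted p = 0.529). The Lin- arrays overlapped the 1-month arrays on both sides. Collagen type I itself (Col1a1) was at 2.86 on L3 and 7.21 on L4. The summed level of the stellate cell markers, a list that includes Col1a1, ranged from 4.55 to 7.44 in Lin- BM cells. At 1 month the sum ranged from 4.51 to 5.00. The part of stellate cells in the Serpinh1 values was not tested.

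Of the 35 clade B probes for 25 genes, 12 passed the filter, 1 was higher, 2 were lower and 9 were not called, beside 27.2% of all probes called higher and 27.9% lower. Serpinb1a, an inhibitor of neutrophil elastase, proteinase 3 and cathepsin G in leukocytes, was at 5.34 and 4.48 in Lin- BM cells and at 2.69 and 3.20 at 1 month (-1.96 ± 0.41, adjusted p = 0.0132). Serpinb1c was at -0.15 and -0.89 and then at -3.46 and -2.64 (-2.53 ± 0.44, adjusted p = 0.00756), with only B2 well above background. The groups did not overlap for these genes, and Serpinb1a was still well above background on both 1-month arrays. Without B1 its difference was -1.71 and not called.

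Several clade B members gave values without a call. Serpinb10, bomapin, a nuclear serpin of blood-forming cells, was at -2.19 and -1.01 in Lin- BM cells and at -5.50 and -2.79 at 1 month (-2.54 ± 0.97, adjusted p = 0.0752). Serpinb1b was at -1.80 and -2.94 and at background at 1 month (-2.07 ± 0.70, adjusted p = 0.0552). Serpinb6a, Serpinb6b and Serpinb6c, broadly expressed members, differed by -0.39, -0.62 and -0.26, and Serpinb9, an inhibitor of granzyme B, by -0.07 on its brightest probe, none of them called. The single rise was that of Serpinb8, which was at background on both Lin- arrays and at -2.55 and -3.06 at 1 month, at least 5.98-fold higher. Its other probe was at background on all 4 arrays.

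**Figure D3:**
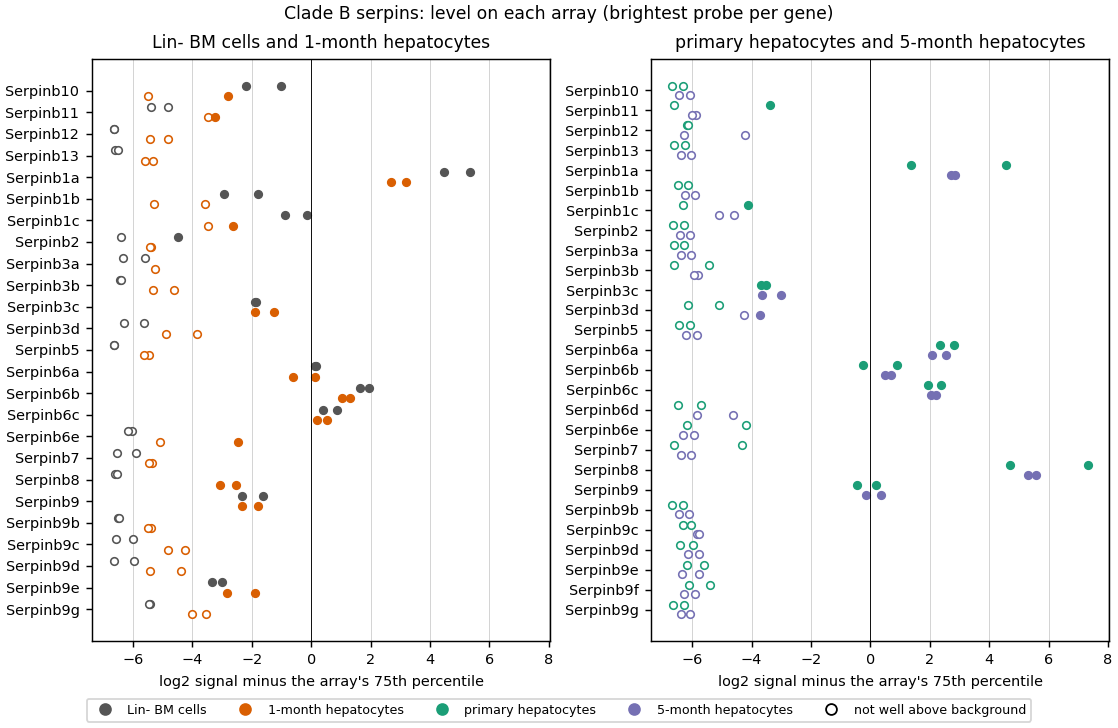
Levels (log2 signal minus the 75th percentile of the array) of the clade B serpins on each array, 1 row per gene read from its brightest probe; open points were not well above background. Most rows of the right panel hold open points only; Serpinb1a lay higher in both Lin- arrays than at 1 month, and its primary hepatocyte points spread from 1.38 to 4.58.

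The second comparison set BM-derived hepatocytes 5 months after transplantation against primary hepatocytes, again within a slide. Few serpins were called, as were few of all probes. With 2 arrays per group, a missing call does not show that a level was equal in both groups. Of 79 probes, 48 (37 of 62 genes) passed the filter, and 1 was higher and 1 lower, while 0.7% of all 26994 probes tested were called, 0.47% higher and 0.23% lower. A further 6 had an unadjusted p under 0.05, which 14.8% of all probes had. The median difference of the 48 probes was 0.30, beside 0.02 for all probes. For 29 of the 48 the groups did not overlap, as for 48.5% of all probes tested.

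Serpina12, vaspin, which inhibits kallikrein 7 and is known as a product of fat tissue and liver, was the member called higher. Both primary arrays were at background (-6.57 and -6.19), and the 5-month arrays were at -2.14 and -2.25, at least 5.52-fold higher (fitted difference 4.18 ± 0.25, adjusted p = 0.0204). These are dim signals, and with normexp background correction the difference was 0.61 and not called. Serpina3i, a further copy of the Serpina3 cluster, was at 0.96 and 1.23 in primary hepatocytes and at -2.78 and -2.81 at 5 months (-3.89 ± 0.23, adjusted p = 0.0204). Its second probe was well above background on H4 alone and did not pass the filter. Leaving out G1 or G3 ended every call of this comparison, so the loss of these calls is not particular to Serpina12 and Serpina3i. Their differences kept their direction in those fits. Over all alternatives the difference of Serpina12 ranged from 0.61 to 4.38 and that of Serpina3i from -4.03 to -2.08, with adjusted p up to 0.433 for each.

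**Figure D4:**
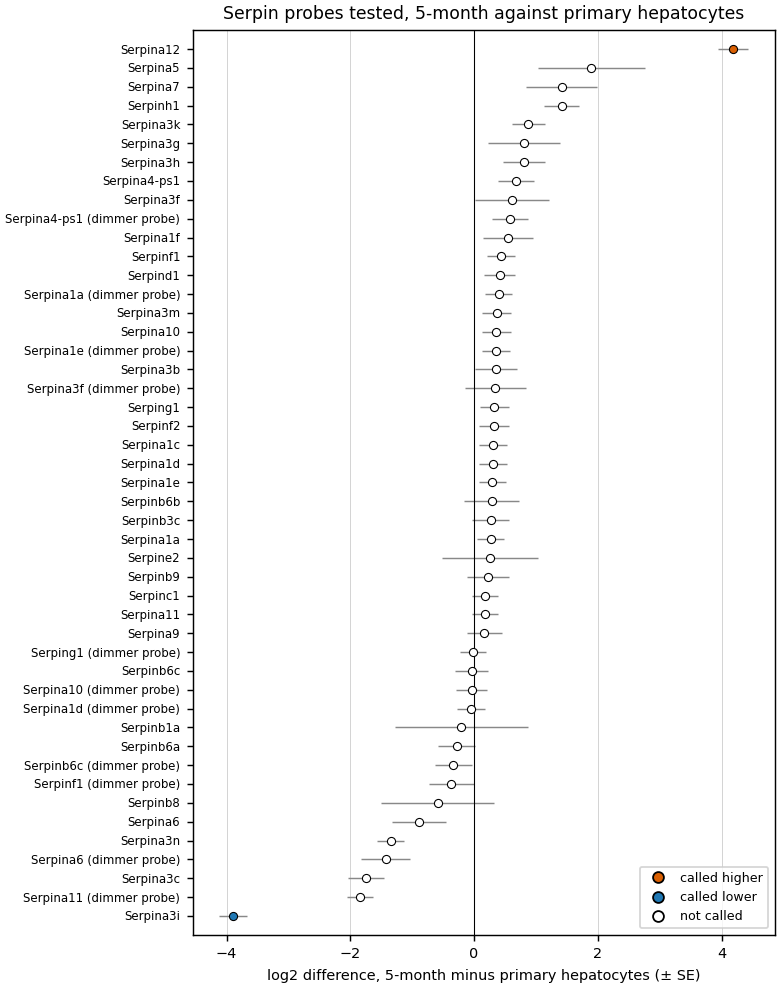
Log2 difference (5-month minus primary hepatocytes, ± SE, 2 arrays each) of 47 of the 48 Serpin probes tested; filled points were called, and a dimmer probe of a gene with more than 1 probe is named as such. Most points lie near 0, with Serpina12 at 4.18 and Serpina3i at -3.89 apart from the rest.

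None of the 25 plasma serpin probes that passed was called. Of the 26 plasma serpin probes only that of Serpina1b, at background on all 4 arrays, did not pass, and 21 of the 25 had groups that did not overlap, beside 48.5% of all probes tested. Their median difference was 0.30. The α1-antitrypsin probes of Serpina1a, Serpina1c, Serpina1d and Serpina1e differed by 0.27 to 0.31 on their brightest probes, with adjusted p from 0.582 to 0.641. Dimmer probes differed by 0.40 for Serpina1a, -0.05 for Serpina1d and 0.36 for Serpina1e. Antithrombin was at 9.59 and 9.66 in primary hepatocytes and at 9.73 and 9.86 at 5 months (0.17 ± 0.21), and heparin cofactor II at 8.28 and 8.16 and then at 8.45 and 8.81 (0.41 ± 0.24). Neither inhibitor of thrombin was called, although the groups did not overlap for either. The differences of Serpinf1, Serpinf2 and Serping1 were 0.43, 0.32 and 0.33 on their brightest probes. On the dimmer probes of Serpinf1 and Serping1 they were -0.37 and -0.02.

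The larger differences among the plasma serpins were in the Serpina3 cluster and in the hormone carriers. Serpina3c was at 7.21 and 7.61 in primary hepatocytes and at 5.44 and 5.88 at 5 months (-1.75 ± 0.29, adjusted p = 0.111). Serpina3n was at 4.43 and 4.60 and then at 3.12 and 3.22 (-1.34 ± 0.22, adjusted p = 0.109). Serpina3k was at 9.68 and 10.06 and then at 10.58 and 10.90 (0.87 ± 0.27, adjusted p = 0.272). In all 3 the groups did not overlap, and none passed the adjusted threshold. Corticosteroid-binding globulin was at 7.04 and 8.19 in primary hepatocytes and at 6.82 and 6.63 at 5 months (-0.89 ± 0.44, adjusted p = 0.44), and thyroxine-binding globulin at 0.62 and -1.0 and then at 1.23 and 1.24 (1.42 ± 0.57, adjusted p = 0.361).

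The probes of Serpina11 disagreed. The probe drawn from the RefSeq transcript was at 7.40 and 7.41 in primary hepatocytes and at 7.53 and 7.62 at 5 months (0.17 ± 0.21, adjusted p = 0.753). The probe drawn from a cDNA clone was at 8.28 and 8.28 and then at 6.44 and 6.44 (-1.84 ± 0.21, adjusted p = 0.0579). They start 3 bases apart on the genome and differ at 4 positions of their overlap, and this pair was chosen for print after its values were seen. The stretches below cover the same 30 bases, with the differing letters in capitals.
Serpina11, transcript probe (chr12:105218465-105218524, mm9): ccccctgcaTggcaggaccccTgTgctTca
Serpina11, cDNA clone probe (chr12:105218462-105218521, mm9): ccccctgcaCggcaggaccccCgCgctGca
Counted from 1 at the 5′ end of the stretch, with the transcript probe first, the differences are T10C, T22C, T24C and T28G. The groups did not overlap for either probe.

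Outside the plasma serpins, collagen chaperone Serpinh1 was at -0.34 and 0.22 in primary hepatocytes and at 1.44 and 1.28 at 5 months (1.42 ± 0.28, adjusted p = 0.149). The summed level of the stellate cell markers ranged from 3.15 to 5.53 in primary hepatocytes and from 5.24 to 5.48 at 5 months, and Col1a1 was at background on both primary arrays and at -2.48 and -2.47 at 5 months. The part of these cells in the Serpinh1 value was not tested. Both neuroserpin probes were at background on all 4 arrays.

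Of the 31 clade B probes for 27 genes on this design, 8 (7 genes) passed the filter and none was called. By position, 5 of the 15 clade B genes on chromosome 13 (Serpinb1a, Serpinb6a, Serpinb6b, Serpinb6c and Serpinb9) and 2 of the 12 on chromosome 1 (Serpinb3c and Serpinb8) were well above background on all 4 arrays. The primary hepatocyte arrays disagreed for the leukocyte member Serpinb1a, at 4.58 on H2 and 1.38 on H4, with 2.71 and 2.84 at 5 months in between. They also disagreed for Serpinb8, at 4.69 on H2 and 7.34 on H4, with 5.30 and 5.56 at 5 months. The summed level of the 5 pan-leukocyte markers ranged from 2.64 to 3.16 in primary hepatocytes and from 5.01 to 5.21 at 5 months, and 0 of the 5 were called. Lcp1 was at 5.09 and 4.92 at 5 months and at 2.33 and 2.77 in primary hepatocytes, and the other 4 markers differed by 0.53 to 0.76. Over the 3 markers with a shared probe the summed levels overlapped (1.29 to 1.81 at 5 months and 1.68 to 1.71 in primary hepatocytes). Median differences were 1.02 for 8 Kupffer cell markers, 1.36 for 6 neutrophil and myeloid markers and 0.14 for 5 lymphocyte markers. For all probes the median was 0.02, and 0 of these markers were called. The part of leukocytes in the Serpinb1a and Serpinb8 values was not tested.

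Across the slides, the 30 probes of identical sequence allow all 4 groups to be set side by side, with levels scaled to the 75th percentile of these shared probes. Of the 30, 20 passed the filter. Against Lin- BM cells, 9 were higher and 7 lower in primary hepatocytes (66.8% of all 9721 probes tested were called, 29.2% higher and 37.7% lower), and 11 were higher and 6 lower in 5-month hepatocytes (66.4% called, 29% higher and 37.3% lower). These comparisons share their Lin- arrays. Among the lower ones in both were Serpinb3c, Serpinb9e and Serpini2, whose levels followed the slide, as given below. Serpinb10 was lower in both, at least 7.29-fold in primary hepatocytes and at least 5.88-fold at 5 months. Serpinh1 was lower in primary hepatocytes (-2.52 ± 0.78, adjusted p = 0.0259) and had -1.06 ± 0.78 at 5 months (adjusted p = 0.265). Leaving out H2 (-2.22) or H4 (-2.82) ended the former call, and over all alternatives its difference ranged from -3.82 to -1.22. Serpina5, protein C inhibitor, was at background on 6 arrays and at -5.21 and -4.90 at 5 months, at least 3.02-fold higher than in Lin- BM cells, a call that was lost when any array of the first slide or of the 5-month group was left out. All 9 plasma serpins with a shared probe were higher in both, with median differences of 10.87 and 9.17, beside -0.28 and -0.30 for all probes. Taking the 75th percentile over all probes of each design moved these medians of all probes to -0.10 and -0.16.

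**Figure D5:**
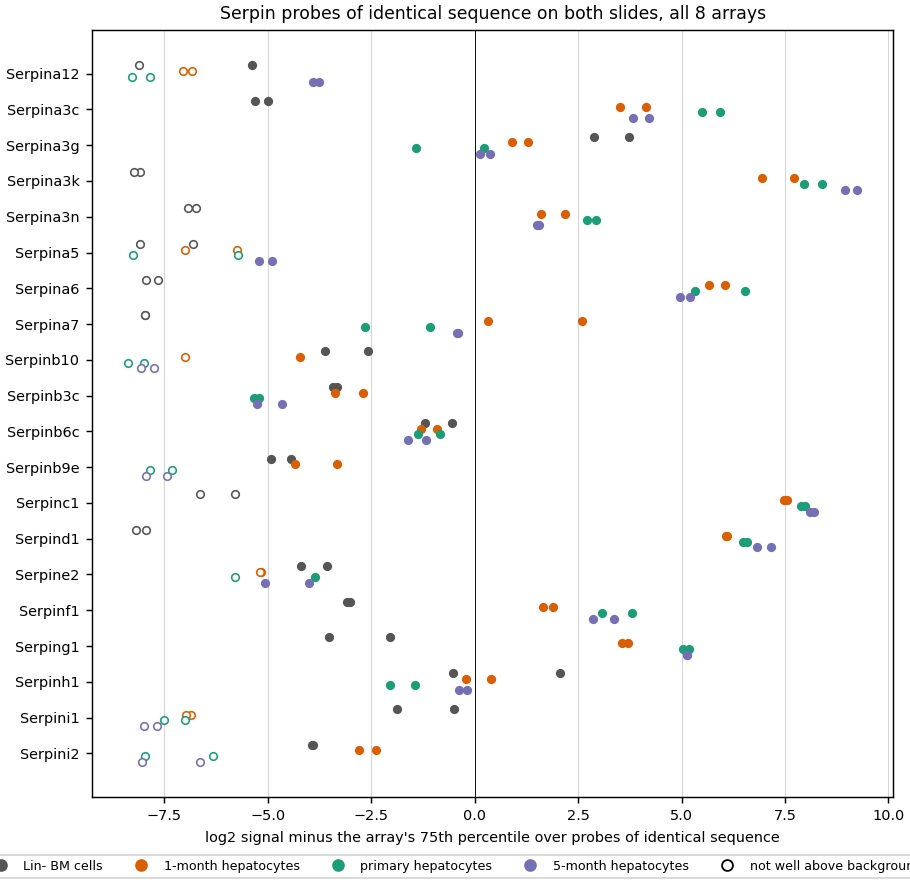
Levels (log2 signal minus the 75th percentile over the shared probes) on all 8 arrays of the 20 Serpin probes of identical sequence that were tested; open points were not well above background. The plasma serpins such as Serpinc1 and Serpind1 lie apart from Lin- BM cells in all 3 hepatocyte groups, while Serpinb3c, Serpinb9e and Serpini2 lie higher in both groups of the first slide than in both of the second.

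Among the hepatocyte groups the order of antithrombin was 1 month (7.47 and 7.54), primary (7.89 and 7.99) and 5 months (8.11 and 8.19), and no neighbours in that order differed by a call. Heparin cofactor II had the same order, at 6.07 and 6.09, 6.57 and 6.49, and 6.83 and 7.15, and 5 months was called higher than 1 month (0.91 ± 0.23, adjusted p = 0.0412). That call was lost without B1, B2, H2, H4, G1 or G3, with differences of 0.75 to 1.07, and also with quantile normalization (0.77), without a filter on dim probes and with the methods' t-test adjusted. The comparison of 5 months with 1 month had 4 Serpin probes higher and 3 lower, beside 16.6% of all probes called (5.71% higher, 10.9% lower). The lower ones were Serpinb3c, Serpinb9e and Serpini2, whose levels followed the slide, as given below.

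The other members higher at 5 months than at 1 month were Serpina3k (1.76 ± 0.32, adjusted p = 0.0175), Serpinf1 (1.34 ± 0.31, adjusted p = 0.0344) and Serpina12, at least 3.88-fold higher. Of the 3 hepatocyte markers with a shared probe, 2 were also called higher, among them Alb (1.04 ± 0.22, adjusted p = 0.0254). Their median difference was 1.02, beside -0.14 for all probes. Whether the plasma serpins moved apart from such markers was not tested. Leaving out 1 array lost the call of Serpina3k (B1, G1 or G3), of Serpinf1 (B1, B2, G1 or G3) and of Serpina12 (any array of the 3 hepatocyte groups). C1 inhibitor was at 3.70 and 3.57 at 1 month, 5.03 and 5.19 in primary hepatocytes and 5.14 and 5.12 at 5 months, and neither difference from 1 month was called (adjusted p = 0.0743 and 0.0684). The call of Serpina12 was lost with normexp background correction, where its difference was -0.07.

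Against primary hepatocytes, 4 shared Serpin probes were higher and 2 lower at 1 month, beside 16.6% of all probes called (11.3% higher, 5.25% lower). Serpinb3c, Serpinb9e and Serpini2, whose levels followed the slide, were among the higher ones. The 3 hepatocyte markers with a shared probe had a median difference of -0.78, beside 0.16 for all probes, and 0 of them were called. Serpina3c (-1.89 ± 0.32, adjusted p = 0.0131) and Serpinf1 (-1.67 ± 0.31, adjusted p = 0.0177) were lower, and thyroxine-binding globulin was higher (3.34 ± 0.79, adjusted p = 0.0348). For the latter the 1-month arrays were at 2.60 and 0.33, the primary arrays at -1.08 and -2.66 and the 5-month arrays at -0.40 and -0.43. Leaving out 1 array lost the call of Serpina3c (B1 or H4), of Serpinf1 (B1, B2 or H2) and of Serpina7 (L3, L4, B1, H4, G1 or G3). The share of all calls that were higher was 68.4% here and 34.3% for 5 months against 1 month, and with the 75th percentile over all probes of each design it was 52.7% and 48.5%; the directions of the plasma serpins called in these comparisons (Serpina3c, Serpina3k, Serpina7, Serpind1 and Serpinf1) did not turn with it.

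The levels of 3 shared probes followed the slide. Serpinb3c, a squamous cell carcinoma antigen homologue, was at -3.33 and -3.43 in Lin- BM cells and -3.39 and -2.69 at 1 month, against -5.21 and -5.34 in primary hepatocytes and -5.26 and -4.66 at 5 months. Serpinb9e and Serpini2 were well above background on the 4 arrays of the first slide and on none of the second. For these 3 probes a difference between groups cannot be told apart from one between slides. Neuroserpin was lower than in Lin- BM cells in primary hepatocytes (at least 27.73-fold) and at 5 months (at least 22.36-fold), as was Serpina3g (-3.90 ± 0.56 and -3.05 ± 0.56), the directions seen at 1 month within the slide. Serpina3g was well above background on all 8 arrays, at 3.72 and 2.88 in Lin- BM cells, 1.28 and 0.89 at 1 month, -1.43 and 0.23 in primary hepatocytes and 0.37 and 0.12 at 5 months.

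The proteases that serpins control were read from a list of 31 names, of which 29 genes were probed on each design. At 1 month, 18 of 28 tested were higher than in Lin- BM cells, 8 were lower and 2 were not called, beside 27.2% of all probes called higher and 27.9% lower. Among the higher ones were zymogens that hepatocytes secrete. Prothrombin (F2), the precursor of the target of antithrombin and heparin cofactor II, was at -5.95 and -2.63 in Lin- BM cells and at 9.13 and 9.06 at 1 month, and plasminogen (Plg), the precursor of the target of α2-antiplasmin, was at least 5560-fold higher. Of the lower ones, 6 were granule proteases of blood cells, 3 of them (Elane, Ctsg and Prtn3) also on the list of myeloid markers. Neutrophil elastase (Elane), the target of α1-antitrypsin and Serpinb1a, was at 3.33 and 2.72 in Lin- BM cells and at -1.26 and -1.99 at 1 month (-4.65 ± 0.40). Cathepsin G (Ctsg) fell by 8.31 (SE 0.40) and granzyme B (Gzmb), the target of Serpinb9, was at least 38.5-fold lower.

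Against primary hepatocytes, 0 of the 24 proteases tested at 5 months were called, beside 0.7% of all probes, and their median difference was 0.02, as was that of all probes. Elane was well above background on all 4 arrays of this slide, at 3.03 and 4.37 in primary hepatocytes and 3.42 and 3.56 at 5 months. Its levels cannot be compared with those on the first slide, as no shared probe read it. Of the 9 cofactors, receptors and clients, 8 were tested at 1 month, where vitronectin (Vtn), an adhesive plasma glycoprotein, complement C5 (Hc) and the clearance receptor Lrp1 were higher and the urokinase receptor (Plaur) and Col1a1 were lower. At 5 months 1 of 9 was called, the receptor Lrp2, at least 2.9-fold higher than in primary hepatocytes, where it was at background. That call, like every call of this comparison, was lost without G1 or G3. The median difference of the 9 was 1.17, beside 0.02 for all probes.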

How the data were processed

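The arrays were single-colour Agilent arrays of 2 designs. The authors read them with Agilent Feature Extraction 11.5.1.1, whose deposited background-subtracted signal is an intensity per spot, and shifted log2 values to the 75th percentile in GeneSpring GX; those deposited log2 values were used as an alternative. Here, spots marked as outliers were left out, spots of identical sequence were averaged as log2 values, and each array's 75th percentile was subtracted (all probes within a slide, 13991 shared sequences across slides). Probes that were well above background on both arrays in any group were fitted with limma 3.58.1 (R 4.3.3) with Benjamini-Hochberg adjustment, within a slide over 4 arrays and across slides over 8. The fit was tested on simulated data. Where neither array of a group was well above background, the fold is a lower bound: the mean of the brighter group against, per array, the higher of the lowest signal well above background and the probe's own. With 2 arrays per group their number limits the precision, and an exact two-sided permutation test cannot go below 0.33. The members and lists were chosen with earlier results of these data known. Genes were named by a rule: the plasma serpins, Serpinh1, Serpine2 and Serpini1, up to 6 genes with the largest called rises and falls per within-slide comparison, all called at 5 months and genes with disagreeing probes; each was read from its brightest probe, and others were added after their values were seen; 1 gene, included in the counts, is not reported here. Alternatives were normexp (offset 50), quantile normalization, other filters, 1 probe per gene, the methods' t-test, slide as a block and leaving out each array. The block could not change the fit over all arrays, since no group lies on both slides. Python 3.11.15 with pandas 2.3.3 and matplotlib 3.10.9 made the tables and figures.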

Additional observations from a re-analysis of the deposited data

Results flagged for a closer look

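A probe outside the rule carried a signal above the control cells. On the first design the probe named EG238395, which its accession names as Serpina3j, was at -4.10 and -4.73 in Lin- BM cells, with 1 of the 2 arrays well above background, and at 2.34 and 3.16 in 1-month hepatocytes (difference 7.17 ± 0.42, n = 2, adjusted p = 3.4e-04 with limma). A different probe named Serpina3j on the second design was at background on all 4 arrays, and whether the first reads another copy of the cluster was not tested. With 2 arrays per group no value could be flagged for standing apart within its group.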

How the results depend on the processing

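No paired analysis was possible because the groups compared share fewer than 2 replicate numbers in the labels. As no group lies on both slides, slide as a block gives the same fit as without it and is no separate check. The named plasma serpins kept their direction against Lin- BM cells under the alternatives run, but counts moved with filters and tests. At 1 month against Lin- BM cells, 24 higher and 6 lower calls became 39 higher without a filter on dim probes, 10 and 3 among probes well above background on every array, 9 and 3 over the 8 arrays with shared probes (also with slide as a block), and 0 lower with the methods' t-test after Benjamini-Hochberg; leaving out an array gave 20 to 23 higher and 4 to 8 lower. At 5 months against primary hepatocytes, 1 higher and 1 lower became 0 and 3 with normexp, 0 higher under the strict filter, 2 and 4 with the unadjusted t-test, 0 and 0 with that test adjusted, 0 and 0 over the 8 arrays (also with the block), and 0 to 5 higher and 0 to 7 lower without an array: 0 and 0 without G1 or G3, 2 and 7 without H2 and 5 and 3 without H4. Primary hepatocytes against Lin- BM cells moved from 9 higher and 7 lower to 3 and 3 under the strict filter, and to 4 lower with normexp or the unadjusted t-test and 2 lower with the adjusted one; without an array they had 9 higher and 6 to 8 lower. At 5 months against Lin- BM cells, 11 and 6 became 3 and 2 under the strict filter, and 3 lower with normexp or the adjusted t-test; without an array the counts were 9 to 11 and 6 to 7. At 1 month against primary hepatocytes, 4 and 2 became 7 and 5 with normexp, 9 higher without the filter, 2 higher under the strict one and 0 and 0 with the adjusted t-test, and 3 to 5 higher and 0 to 3 lower without an array (0 lower without B1, 1 without B2, H2 or H4). At 5 months against 1 month, 4 and 3 became 5 lower without the filter, 1 lower under the strict one and 0 and 0 with the adjusted t-test, and 0 to 5 higher and 2 to 4 lower without an array (0 higher without B1, G1 or G3, 1 without B2, 2 without H2 or H4). With normexp, Serpine2 at 1 month against Lin- BM cells turned to 0.31 and Serpina12 at 5 months against 1 month to -0.069; the cause was not tested. Normexp moved the median of all probes at 1 month against Lin- BM cells from -0.02 to 0.33 and the share of higher calls from 49.4% to 61.5%. Of the 30 Serpin probes called there, 29 were called with normexp and with quantile normalization. Serpina7 at 1 month against primary hepatocytes, with a difference of 2.20 without B1, lost its call. Levels of dim probes are limited by the signal over background, most of all at 1 month.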
